A study of Mus musculus with 10 samples.

Results

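The genes described here serve the juxtaglomerular apparatus, the place where each nephron's tubule touches its own glomerular arterioles. The set holds 8 genes out of 18193 that a probe set of 1 gene symbol stands for: Nos1, Ptgs2, Ptges and Pappa2 for the macula densa, and Gja4, Gja5, Rgs5 and Aldh1a2 for renin cells and arterioles. They were chosen by symbol, and where a gene had several probe sets the one with the highest mean was taken. Affymetrix arrays, 1 per mouse, measured renal cortex RNA of 10 mice of strain FVB/N at an age of 20 weeks. In all of them a 2/3 kidney ablation and a uninephrectomy had preceded the drug, which began 6 weeks after the first operation and 4 weeks after the second and was given for 6 weeks. One group of 5 mice received aliskiren at 50 mg/kg per day, a direct inhibitor of renin. The other group of 5 mice received losartan at 500 mg/l, a blocker of the type 1 angiotensin II receptor. Mice without drug were not analysed here, so the values compare the 2 drugs with each other and neither with an untreated remnant kidney.

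Macula densa cells sense the salt that reaches the end of the thick ascending limb and signal to the renin-secreting cells of the afferent arteriole. Nitric oxide and prostaglandin E2 are mediators known to favour renin release when little salt arrives, and both synthesis pathways are known to become more active in macula densa cells when angiotensin II is blocked. Renin cells are modified arteriolar smooth muscle cells that are coupled through connexins to each other and to the endothelium, and mice without Gja5 lose the pressure control of renin. Renin and Akr1b7, which would mark juxtaglomerular cells directly, were not analysed here. Of the macula densa markers, Slc12a1, the salt transporter through which these cells sense chloride, averaged 12.82 ± 0.44 with aliskiren and 12.42 ± 0.48 with losartan (log2, SD, n = 5 each), but the whole thick ascending limb makes it too. The juxtaglomerular apparatus is a small part of the cortex, so the values are those of whole cortex and not of these cells, and fewer cells of a type cannot be told apart from less RNA per cell.

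The upstream windows printed here belong to the 3 genes that were highest in the same mouse, losartan mouse 3, and to Nos1, which was lowest in it. Each run holds the 250 bases before the gene's start in RefSeq, build GRCm38.p6 of strain C57BL/6J, written 5′ to 3′ on the gene's strand. Capitals mark CCAAT boxes (CCAAT), GC boxes (GGGCGG) and a site for RBPJ, the Notch effector that renin cells need (TGGGAA), searched on both strands.
Rgs5, chr1:169655251-169655500, plus strand: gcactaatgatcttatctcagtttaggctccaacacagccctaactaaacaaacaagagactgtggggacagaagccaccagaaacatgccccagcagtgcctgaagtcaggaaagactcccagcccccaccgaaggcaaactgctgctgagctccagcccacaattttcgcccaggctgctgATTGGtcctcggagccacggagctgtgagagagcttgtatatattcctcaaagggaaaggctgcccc
Aldh1a2, chr9:71215539-71215788, plus strand: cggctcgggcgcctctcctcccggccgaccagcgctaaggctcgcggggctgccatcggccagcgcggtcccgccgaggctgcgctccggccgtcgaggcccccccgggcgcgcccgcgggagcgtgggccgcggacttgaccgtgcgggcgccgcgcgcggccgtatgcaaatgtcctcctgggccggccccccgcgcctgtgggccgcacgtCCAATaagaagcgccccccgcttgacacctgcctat
Ptges, chr2:30903298-30903547, minus strand: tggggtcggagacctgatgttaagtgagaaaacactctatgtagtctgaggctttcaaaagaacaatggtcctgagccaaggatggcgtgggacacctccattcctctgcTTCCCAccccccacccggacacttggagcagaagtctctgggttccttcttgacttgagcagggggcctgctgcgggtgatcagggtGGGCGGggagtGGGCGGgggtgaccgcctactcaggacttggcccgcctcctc
Nos1, chr5:117866589-117866838, plus strand: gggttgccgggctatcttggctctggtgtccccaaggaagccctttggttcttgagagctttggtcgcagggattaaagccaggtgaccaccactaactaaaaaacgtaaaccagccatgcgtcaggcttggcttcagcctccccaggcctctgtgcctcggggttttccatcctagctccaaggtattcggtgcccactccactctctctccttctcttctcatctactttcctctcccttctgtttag
Among all 8 genes, 3 held a CCAAT box in this window (Rgs5, Aldh1a2 and Pappa2), where 33.8% of 32851 mouse promoters did. GC boxes stood before 4 of the 8 genes (Ptges, with a pair of them, Ptgs2, Gja4 and Gja5) and before 32.7% of all promoters. The RBPJ letters were found before Ptges alone of the 8, and before 21.6% of all promoters. Neither TGACGTCA, the cAMP response element (1.55% of all promoters), nor TATAAA (12.4%), TGANTCA, the AP-1 site (6.75%), CACGTG, an E-box (6.02%), or AGGTCA, the retinoic acid receptor half-site (14%), occurred in these 8 windows. The promoter of Aldh1a2 stands out by a GC content of 77.6%, against 53.6% for Rgs5, 59.6% for Ptges and 54% for Nos1. These matches describe letters only and draw nothing about binding. The Nos1 run ends in a stretch of mostly C and T closed by AG, letters typical of the end of an intron. Whether this window is a promoter used in kidney cortex was not tested.

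One array stood apart before any comparison. The correlation of an array with the other 9, averaged over 45037 probe sets, was 0.981 for losartan mouse 3 and lay between 0.991 and 0.993 for the rest. In the same mouse the tubular injury list reached 10.34, against 6.89 to 8.93 in the other mice, and the perirenal fat list reached 12.92, against 8.28 to 11.06. The fibroblast list stood at 9.62 in it and at no more than 8.25 elsewhere. Many results are therefore also given without this mouse. All values below are log2 values made by the authors with RMA, and a level can be set only against the same gene in another mouse, not against another gene.

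Of the 8 genes, 6 passed the level filter of 5.53, the median of all probe sets, and Ptgs2 and Gja5 lay below it. Rgs5 alone was past the 75th percentile of 7.71, and the other 5 lay within 1 log2 unit of the filter. Between the drugs 0 of the 6 tested genes passed limma's test at an adjusted p under 0.05, where 0% of all 11486 tested genes did (542 at an unadjusted p under 0.05). At that unadjusted level lay 1 of the 6, Ptges, and 4.72% of all tested genes. The same gene was the only one of the 6 whose groups did not overlap, where 0.914% of all tested genes were so separated and 0.496% had all aliskiren mice below. Of the 6 genes 2 were higher and 4 lower with aliskiren, with a median difference of -0.08 beside -0.01 over all tested genes. Without losartan mouse 3 the split was the other way, with 2 of the 6 lower.

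**Figure D1:**
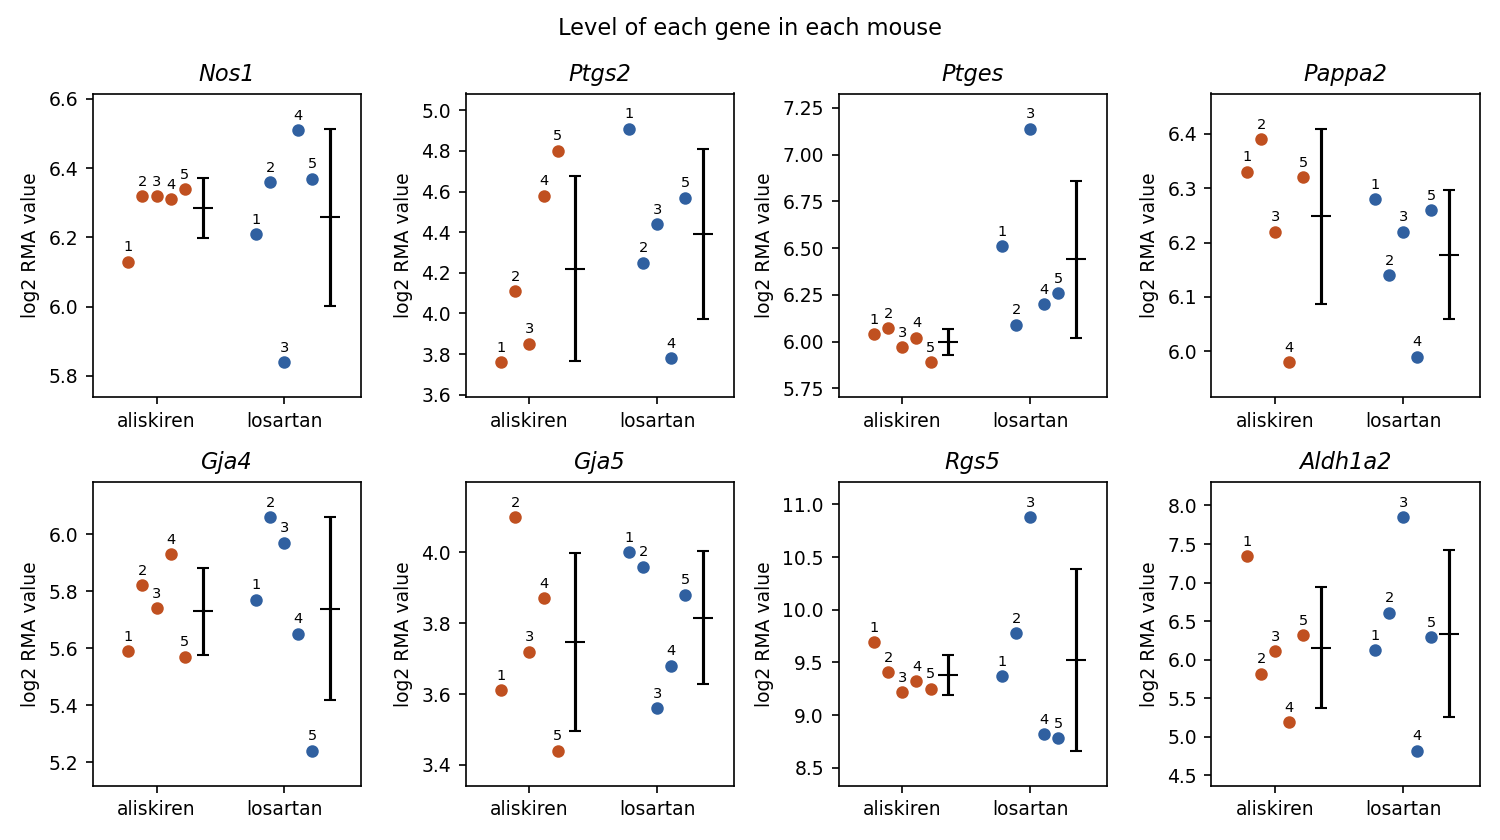
Level of each of the 8 genes in each mouse on the log2 RMA scale, with aliskiren mice left and losartan mice right, each point numbered by mouse and the mean ± SD of 5 mice beside them. For Ptges all aliskiren mice lie below all losartan mice, and losartan mouse 3 is the highest of all 10 for Ptges, Rgs5 and Aldh1a2 and the lowest for Nos1.

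Ptges encodes microsomal prostaglandin E synthase, which turns the product of cyclooxygenase into prostaglandin E2. It stood at 6.04, 6.07, 5.97, 6.02 and 5.89 in aliskiren mice 1 to 5, against 6.51, 6.09, 7.14, 6.20 and 6.26 in losartan mice 1 to 5. Every aliskiren mouse was below every losartan mouse, though the gap between the nearest mice, 6.07 and 6.09, was narrow, and the losartan group spread far more widely. The means were 6.00 ± 0.07 with aliskiren and 6.44 ± 0.42 with losartan (SD, n = 5 each). The difference of -0.45 (SE 0.17, 95% interval -0.83 to -0.06) did not pass limma's test (adjusted p = 0.945), and it was -0.27 without losartan mouse 3, where aliskiren remained below in every mouse. Its p ranked at place 273 among the 11486 tested genes. A further Ptges probe set gave a difference of -0.29 (SE 0.18) with overlapping groups and tracked the first across the mice (Pearson r = 0.929, adjusted p = 0.00423; Spearman rho = 0.733, raw p = 0.0204; permutation tests, 9 probe set pairs). Without losartan mouse 3 that r was 0.504. The Ptges probe set of lowest level gave 0.08 (SE 0.08), the opposite sign, and read 5.71 in losartan mouse 3 as in aliskiren mouse 5.

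Prostaglandin E2 is also made outside the macula densa, so marker lists of other cell types were set beside Ptges, and 0 of their genes passed limma's test. Collecting duct genes were lower in 9 of 9 cases, where 53.8% of all tested genes were lower, with a list mean of 8.69 to 9.24 over aliskiren mice, against 9.04 to 9.31 over losartan mice. Of these 9 genes 5 had an unadjusted p under 0.05, beside 4.72% of all tested genes, and the list's difference of -0.27 was -0.26 without losartan mouse 3. The water channel genes Aqp2 and Aqp3, the 2 of highest mean signal in this list, were not among these 5. Aqp2 differed by -0.47 (SE 0.24) and Aqp3 by -0.16 (SE 0.20). Smooth muscle and pericyte genes were lower in 9 of 9 cases, with list means of 7.40 to 7.93 over aliskiren mice, against 7.24 to 8.77 over losartan mice. That direction rests on losartan mouse 3, because the list's difference was -0.21 with it and 0.03 without it, when 5 of the 9 were lower. Of mesothelium and urothelium genes 4 of 10 were tested and lower in 4 of 4 cases, with list means of 6.76 to 7.30 over aliskiren mice, against 7.02 to 8.78 over losartan mice. The list mean stands only for these 4, the uroplakin genes Upk1b and Upk2 and the keratin genes Krt7 and Krt19. Krt19 is also in the tubular injury list. The mesothelium and urothelium list's difference of -0.50 shrank to -0.18 without losartan mouse 3, with 2 of the 4 lower. Macrophage and myeloid genes were higher in 9 and lower in 2 of 11 cases, with a list difference of 0.10, and of 0.50 without that mouse. Fibroblast genes were higher in 2 and lower in 6 of 8 cases, with a list difference of -0.17 that turned to 0.30 without it. Endothelium genes were higher in 1 and lower in 12 of 13 cases, with 1 at an unadjusted p under 0.05. Their list difference was -0.17, and -0.12 without losartan mouse 3, when 11 of the 13 were lower. The endothelial genes Eng and Plvap differed by -0.19 (SE 0.11) and -0.15 (SE 0.17). The part of these cells in the Ptges values was not tested.

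Ptgs2 encodes cyclooxygenase-2, the inducible enzyme upstream of Ptges in macula densa and inflamed tissue. It lay below the level filter, at 3.76, 4.11, 3.85, 4.58 and 4.80 in aliskiren mice 1 to 5, against 4.91, 4.25, 4.44, 3.78 and 4.57 in losartan mice 1 to 5. The groups overlapped over nearly their whole range. In the fit over all 18193 genes with no level filter the difference was -0.17 (SE 0.24, 95% interval -0.70 to 0.36, limma adjusted p = 0.99). Leaving out single mice moved it between -0.32 and -0.04. The other probe set read between 2.63 and 3.06 and gave -0.04 (SE 0.10).

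Nos1 encodes neuronal nitric oxide synthase, the isoform of the macula densa. It stood at 6.13, 6.32, 6.32, 6.31 and 6.34 in aliskiren mice 1 to 5, against 6.21, 6.36, 5.84, 6.51 and 6.37 in losartan mice 1 to 5. Aliskiren mice 2 to 5 were nearly equal, mouse 1 was lower, and losartan mouse 3 was the lowest of all. The difference was 0.03 (SE 0.11, 95% interval -0.22 to 0.28, limma adjusted p = 0.994), and -0.08 without losartan mouse 3. The 3 further Nos1 probe sets, all below the filter, gave -0.13, -0.03 and 0.02. Their correlations with the first over the 10 mice ran from 0.286 to 0.645 (permutation test, adjusted p from 0.0918 to 0.425; rho from 0.200 to 0.612, raw p from 0.0682 to 0.584) and fell to between -0.04 and 0.16 without losartan mouse 3.

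Pappa2 encodes a secreted protease that frees insulin-like growth factors from their binding proteins and is made in the thick ascending limb and macula densa. It stood at 6.33, 6.39, 6.22, 5.98 and 6.32 in aliskiren mice 1 to 5, against 6.28, 6.14, 6.23, 5.99 and 6.26 in losartan mice 1 to 5. Mouse 4 was the lowest of each group, at nearly the same value. The difference of 0.07 (SE 0.09, limma adjusted p = 0.96) had a 95% interval of -0.13 to 0.26, the narrowest of the 6 tested genes. Pappa2 also varied least, with a highest mouse 1.33-fold above the lowest and a residual SD of 0.14, at percentile 49.1 of all tested genes.

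Gja4 and Gja5 encode the connexins of arteriolar endothelium, and Gja5 also that of renin cells. Gja4 stood at 5.59, 5.82, 5.74, 5.93 and 5.57 in aliskiren mice 1 to 5, against 5.77, 6.06, 5.97, 5.65 and 5.24 in losartan mice 1 to 5. All aliskiren values fell inside the losartan range. The difference was -0.01 (SE 0.14, 95% interval -0.33 to 0.31, limma adjusted p = 0.996), with a sign that turned in 5 of the 10 fits that left out a mouse. Gja5, below the level filter, stood at 3.61, 4.10, 3.72, 3.87 and 3.44 in aliskiren mice 1 to 5, against 4.00, 3.96, 3.56, 3.68 and 3.88 in losartan mice 1 to 5. Both extremes, 3.44 and 4.10, were aliskiren mice. With no level filter the Gja5 difference was -0.07 (SE 0.13, 95% interval -0.36 to 0.22, limma adjusted p = 0.99).

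Rgs5, which encodes a brake on G protein signalling in pericytes and arteriolar smooth muscle, differed between mice far more than between drugs. It stood at 9.69, 9.41, 9.22, 9.32 and 9.25 in aliskiren mice 1 to 5, against 9.37, 9.78, 10.88, 8.82 and 8.78 in losartan mice 1 to 5. The aliskiren mice sat together inside the losartan range, which held both the highest and the lowest mouse, 4.26-fold apart. The residual SD of 0.62 was at percentile 96.7 of tested genes. The difference of -0.15 (SE 0.35, 95% interval -0.92 to 0.63, limma adjusted p = 0.986) turned to 0.19 without losartan mouse 3. The 3 further Rgs5 probe sets followed the first closely across the mice, with r between 0.955 and 0.974 (permutation test, adjusted p up to 0.00087; rho between 0.891 and 0.952, raw p up to 0.0011), and between 0.85 and 0.928 without losartan mouse 3.

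Aldh1a2 encodes retinaldehyde dehydrogenase, which makes retinoic acid. It stood at 7.34, 5.82, 6.11, 5.19 and 6.32 in aliskiren mice 1 to 5, against 6.12, 6.61, 7.85, 4.82 and 6.29 in losartan mice 1 to 5. Aliskiren mouse 1 and losartan mouse 3 were high and mouse 4 of each group low, so the groups overlapped widely. The highest mouse lay 8.13-fold above the lowest, and the residual SD of 0.95 was at percentile 99 of tested genes. The difference was -0.19 (SE 0.53, limma adjusted p = 0.989), and 0.19 without losartan mouse 3. Its 95% interval, -1.36 to 0.98, was the widest of the 6.

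**Figure D2:**
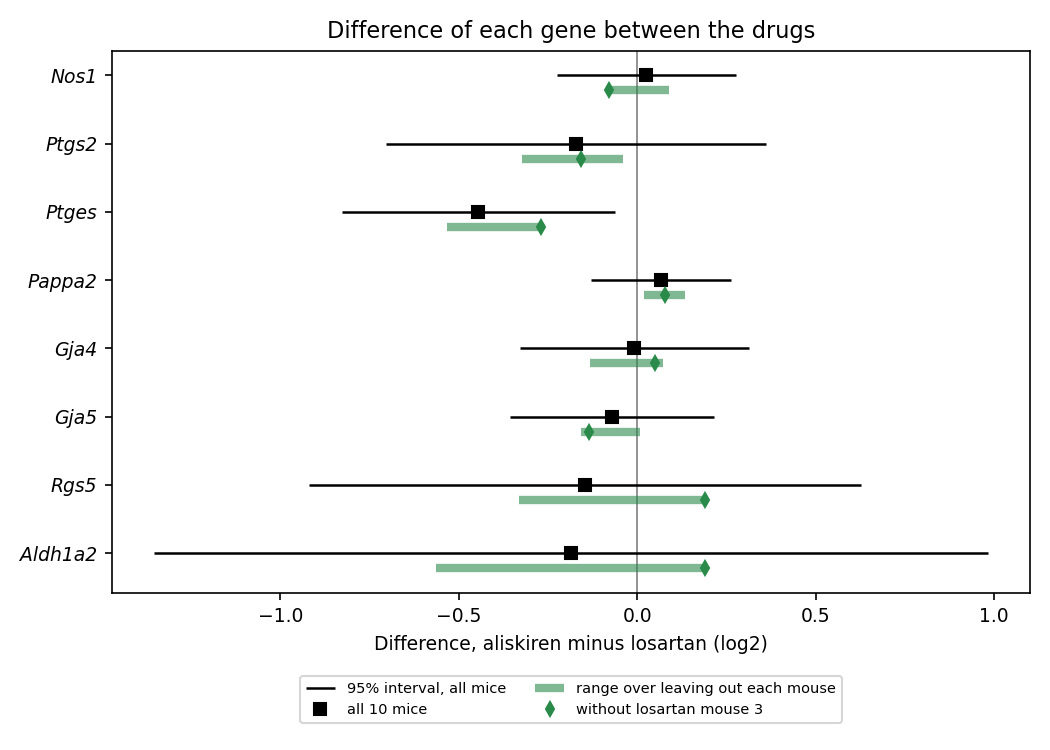
Difference of each gene, aliskiren minus losartan on the log2 scale, with limma's 95% interval (black), the range over fits that leave out 1 mouse in turn (green bar) and the value without losartan mouse 3 (green diamond). Ptges alone has an interval below 0, from -0.83 to -0.06, and the values of Rgs5 and Aldh1a2 move to 0.19 without losartan mouse 3.

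With the drug group means taken out, the genes were set against each other over the 10 mice. Of 28 gene pairs, 3 passed a permutation test of Pearson's r after adjustment over the pairs, and each involved Nos1. Nos1 ran against Ptges (r = -0.916, adjusted p = 0.0301; rho = -0.830, adjusted p = 0.138), against Rgs5 (r = -0.891, adjusted p = 0.0301; rho = -0.624, adjusted p = 0.568) and against Aldh1a2 (r = -0.823, adjusted p = 0.0318; rho = -0.418, adjusted p = 0.873). By rho 0 of the 28 pairs passed. Without losartan mice 3 and 4, the mice farthest from the median of Nos1, r was -0.672, -0.483 and -0.496 and did not pass. A test on fewer mice passes less easily, and 0 pairs passed without aliskiren mouse 3 alone either. The r values themselves were also weaker in all 3 pairs without losartan mice 3 and 4. Without losartan mouse 3 alone, and centred again on the mice kept, the 3 r values were -0.610, -0.580 and -0.715. For each pair this was the weakest r of those that left out 1 mouse. The part of single mice in these relations was not tested.

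Rgs5 and Aldh1a2 ran in the same direction across the mice, just short of the threshold. Their r was 0.774 (adjusted p = 0.0596) and their rho 0.612 (adjusted p = 0.568), with r = 0.823 without losartan mice 3 and 5 and r = 0.583 without losartan mouse 3. Ptges and Rgs5 had r = 0.784 (adjusted p = 0.118, and rho = 0.467 with adjusted p = 0.828), which came to -0.01 without losartan mouse 3. Without losartan mice 2 and 3 it came to 0.847 (permutation test, adjusted p = 0.230), or to 0.834 when centred again on the mice kept. The relation therefore turned on which of these mice were kept. The connexin genes Gja4 and Gja5 had r = 0.219 (adjusted p = 0.816; rho = 0.394, adjusted p = 0.873) with each other. Ptgs2 had no r beyond 0.186 in size with any of the other 7 genes. The macula densa genes Nos1, Ptgs2 and Pappa2 had r between -0.367 and 0.186 among themselves, with adjusted p of 0.812 or more.

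Markers of other cortical cell types were then set beside each gene, as the mean level of each list. Of 88 relations between 8 genes and 11 lists, 12 passed the permutation test of r after adjustment, 0 by rho and 0 once the 2 mice farthest on the list's axis were left out. When the mice that remained were centred again on their own group mean, 3 of the 88 passed and 0 of the 28 gene pairs did (permutation test). These were Rgs5 with the injury list (r = 0.907, adjusted p = 0.0458), Nos1 with the endothelium list (r = -0.810, adjusted p = 0.0458) and Ptgs2 with the mesothelium and urothelium list (r = -0.990, adjusted p = 0.00176), the last with r = -0.228 over all 10 mice. The 12 that passed over all 10 mice joined Rgs5, Aldh1a2 and Nos1 with the same 4 lists: tubular injury, macrophage and myeloid, fibroblast, and smooth muscle and pericyte. These lists move together between mice, so the 12 are not separate observations. The lists held 9 of 12, 11 of 12, 8 of 8 and 9 of 11 genes past the filter. The mean of the injury list ran from 7.31 to 8.93 with aliskiren and from 6.89 to 10.34 with losartan. It includes Clu and Vim, a secreted chaperone and the intermediate filament vimentin. The myeloid list, with Csf1r and Lyz2, ran from 7.17 to 8.61 with aliskiren and from 6.35 to 9.22 with losartan. The fibroblast list, with the collagen genes Col1a2 and Col3a1, ran from 6.91 to 8.25 with aliskiren and from 6.65 to 9.62 with losartan. The smooth muscle list, with Acta2 and Pdgfrb, ran from 7.40 to 7.93 with aliskiren and from 7.24 to 8.77 with losartan. RMA values have no zero, so no marker is at 0, and the part of these cells in the values of the 8 genes was not tested.

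Rgs5 followed all 4 lists. Its r was 0.964 with the injury list (adjusted p = 0.00088; rho = 0.915, adjusted p = 0.0581), 0.936 with the myeloid list (adjusted p = 0.00176; rho = 0.855, adjusted p = 0.109), 0.946 with smooth muscle (adjusted p = 0.00528; rho = 0.818, adjusted p = 0.115) and 0.938 with fibroblasts (adjusted p = 0.00528; rho = 0.758, adjusted p = 0.198). Without losartan mouse 3 these stood at 0.901, 0.881, 0.794 and 0.776. With the injury list r was still 0.910 without losartan mouse 3 and aliskiren mouse 1 (permutation test, adjusted p = 0.105). The 3 further Rgs5 probe sets, set only against these 4 lists, had r between 0.865 and 0.962, and between 0.555 and 0.905 without losartan mouse 3. They measure the same gene in the same arrays, so they add little to the first.

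Aldh1a2 had r between 0.842 and 0.905 with the 4 lists, highest with the myeloid one (adjusted p = 0.00528; rho = 0.806, adjusted p = 0.115), and between 0.725 and 0.872 without losartan mouse 3. Nos1 ran the other way, with r between -0.948 and -0.864, the strongest with smooth muscle (adjusted p = 0.00528; rho = -0.733, adjusted p = 0.219), and between -0.793 and -0.567 without that mouse. Of the 12 relations of the further Nos1 probe sets with these lists, 4 passed (permutation test over 24 relations), all from 1 probe set, and r ran from -0.870 to -0.395. Without losartan mouse 3 it ran from -0.707 to 0.230, and another probe set turned positive with the smooth muscle list (0.230) and the fibroblast list (0.192). Ptges had r = 0.850 with the mesothelium and urothelium list (adjusted p = 0.0765; rho = 0.552, adjusted p = 0.353), which came to -0.127 without losartan mouse 3. It had r = 0.832 with smooth muscle and 0.811 with fibroblasts (permutation test, adjusted p = 0.0647 and 0.0704), and 0.719 with injury and 0.734 with perirenal fat. Without losartan mouse 3 these came to 0.205, 0.160, -0.071 and -0.177. With collecting duct genes Ptges had r = 0.0423 (adjusted p = 0.928; rho = 0.0546, adjusted p = 0.946). Pappa2 had r = -0.789 with collecting duct genes (adjusted p = 0.0506; rho = -0.564, adjusted p = 0.340), which was -0.811 without losartan mouse 3, -0.476 without aliskiren mouse 4 and -0.547 without aliskiren mice 1 and 4 (permutation p = 0.163). For Ptgs2, Gja4 and Gja5 no relation passed over all 10 mice.

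**Figure D3:**
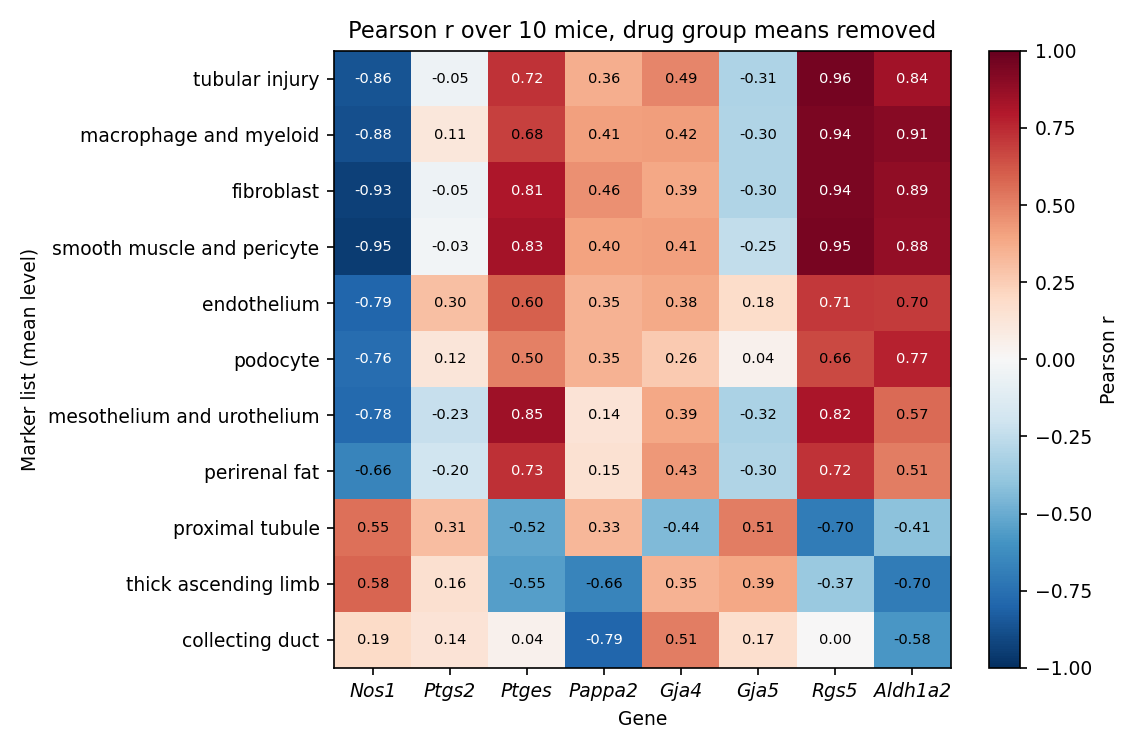
Pearson r over 10 mice between each gene (columns) and the mean level of each marker list (rows), after the drug group means were taken out, with red for positive and blue for negative. Rgs5 and Aldh1a2 are positive and Nos1 negative with the injury, myeloid, fibroblast and smooth muscle lists, while Ptgs2 and Gja5 stay pale.

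**Figure D4:**
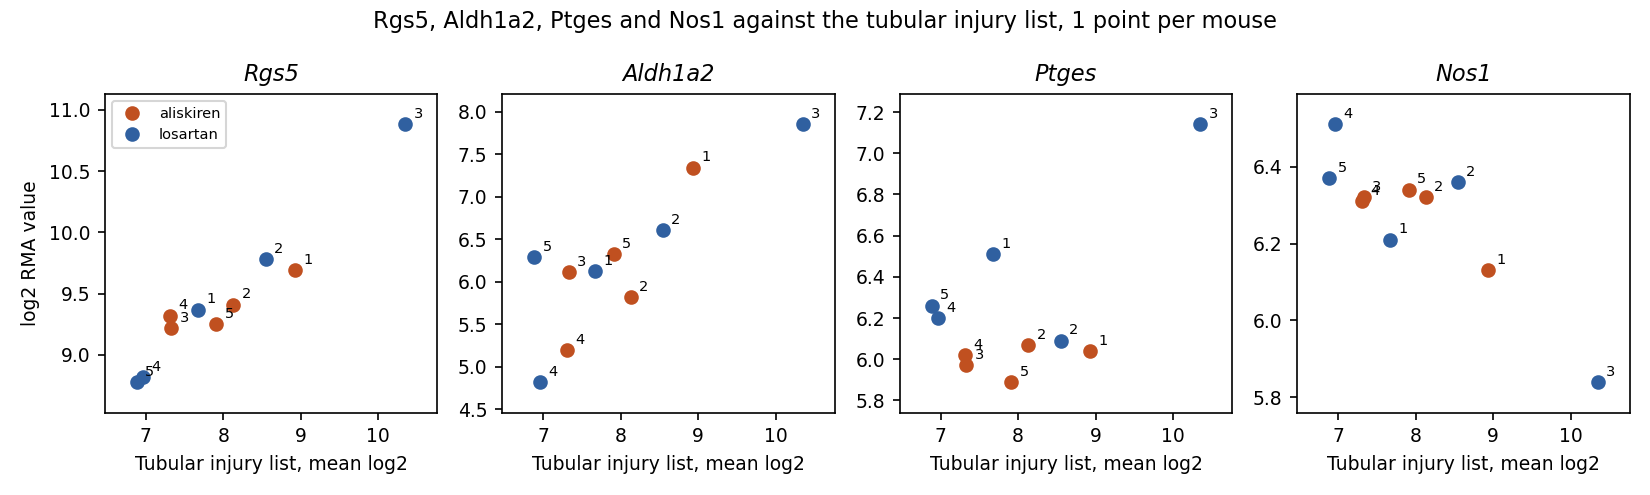
Level of Rgs5, Aldh1a2, Ptges and Nos1 (log2 RMA value) against the mean log2 level of the tubular injury list, 1 numbered point per mouse, aliskiren in orange and losartan in blue. Losartan mouse 3 lies at the right, at 10.34, and Rgs5 also climbs among the other 9 mice, with r = 0.901.

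Genes whose level followed each member most closely were named by the highest r over the 10 mice, out of 11485 or 11486 tested genes, as a description with no test. For Rgs5 they were Msn, encoding the membrane linker moesin (r = 0.991), Pik3ip1 (0.989) and Ptbp3 (0.988). For Aldh1a2 they were Arhgap30 (0.990), the tumour necrosis factor receptor gene Tnfrsf1b (0.984) and Marcks (0.980). For Ptges they were Phgdh, the first enzyme of serine synthesis (0.971), the monoamine oxidase gene Maoa (0.964) and the ether lipid enzyme gene Agmo (0.964). Without losartan mouse 3 the r values of Phgdh, Maoa and Agmo with Ptges were 0.932, 0.754 and 0.869. For Nos1 they were Tmem178 (0.992), Gpr137b-ps (0.987) and Atp6v0e2 (0.983). For Gja4 they were Mcf2l (0.972), Tfap2b, a transcription factor gene of the distal nephron (0.934), and 2410022M11Rik (0.934). For Gja5 they were Trmu (0.939), Tmem161b (0.928) and Tbc1d22a (0.923). For Ptgs2 they were Gm19325 (0.961), the sodium channel subunit gene Scn4b (0.924) and Phlpp2 (0.879). For Pappa2 they were Tmed8 (0.957), Zfp560 (0.949) and H13 (0.948). Without losartan mouse 3, the lowest r among the genes named for members other than Ptges was 0.88, for Phlpp2 with Ptgs2. None of the 8 genes was among the nearest of another, but Ptgs2 and Gja5, below the level filter, were not among the genes searched. The ranking took the highest r only. Genes that ran against each other, as Nos1 did against Ptges, Rgs5 and Aldh1a2, could therefore not appear.

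The pathways around these genes held no call either. Over 8 lists with 88 tested entries in all, 0 genes passed limma's test at an adjusted p under 0.05. Prostaglandin enzymes and receptors had 5 genes higher and 10 lower with aliskiren of 15 tested, with a median difference of -0.05. Ptgfr, the receptor of prostaglandin F2 alpha, averaged 7.04 ± 0.20 with aliskiren and 7.52 ± 0.36 with losartan, a difference of -0.47 (SE 0.17, limma adjusted p = 0.945). Cbr1, encoding a carbonyl reductase that acts on prostaglandins, differed by -0.57 (SE 0.40) and by -0.13 without losartan mouse 3, in which it stood at 10.99. Ptger1, a receptor gene of prostaglandin E2, differed by 0.16 (SE 0.11).

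Of 14 tested genes of nitric oxide and cyclic GMP signalling, 3 were higher and 11 lower with aliskiren, with a median of -0.11. Nos1ap, an adaptor of neuronal nitric oxide synthase, averaged 6.17 ± 0.16 with aliskiren and 6.45 ± 0.15 with losartan, a difference of -0.28 (SE 0.10, limma adjusted p = 0.945). Pde3b, encoding a phosphodiesterase that cyclic GMP inhibits, differed by -0.63 (SE 0.26), and the caveolin gene Cav1 by -0.50 (SE 0.35). Both were high in losartan mouse 3, at 10.49 and 11.20, and without it they differed by -0.37 and -0.13. Salt sensing genes of the macula densa split into 5 higher and 4 lower of 9, with a median of 0.04. Slc12a1 differed by 0.40 (SE 0.26), or 0.26 without losartan mouse 3, Avpr1a, the vasopressin receptor gene, by -0.24 (SE 0.15) and the kinase gene Wnk4 by -0.18 (SE 0.10).

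Renin cell signalling genes were higher in 2 and lower in 8 of 10 cases, with a median of -0.08. The adenylyl cyclase genes Adcy5 and Adcy6, which make the cyclic AMP that drives renin release, differed by 0.23 (SE 0.13) and -0.15 (SE 0.10), and Creb1, encoding its nuclear target, by -0.14 (SE 0.09). A list of connexins with the pannexin gene Panx1 and the junction protein gene Tjp1 had 6 tested genes, 2 higher and 4 lower, with a median of -0.05. Panx1 and Tjp1 were both lower, and the 4 connexins split evenly. Gja1 differed by -0.28 (SE 0.51), stood at 9.86 in losartan mouse 3 and differed by 0.24 without that mouse, Gjc1 differed by -0.16 (SE 0.17) and Gjb2 by 0.19 (SE 0.25). Of 8 tested RGS genes, 2 were higher and 6 lower, with a median of -0.06. Rgs2, the brake on angiotensin receptor signalling, differed by -0.33 (SE 0.23), and by -0.12 without losartan mouse 3, with Rgs3 at -0.14 (SE 0.12) and Rgs9 at 0.11 (SE 0.09).

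Retinoic acid genes around Aldh1a2 were higher in 4 and lower in 8 of 12 cases, with a median of -0.01. Rdh10, which makes the retinaldehyde that Aldh1a2 oxidises, differed by 0.30 (SE 0.15), the receptor gene Rarb by -0.21 (SE 0.11) and the degrading enzyme gene Cyp26b1 by -0.12 (SE 0.12). Insulin-like growth factor genes around Pappa2 were higher in 6 and lower in 8 of 14 cases, with a median of -0.07. Stc1, of the stanniocalcin family that binds and inhibits pappalysins, averaged 6.48 ± 0.29 with aliskiren and 7.34 ± 0.33 with losartan, with every aliskiren mouse below every losartan mouse. Its difference of -0.86 (SE 0.18) did not pass limma's test (adjusted p = 0.945). Igf2r differed by 0.20 (SE 0.15) and the insulin receptor substrate gene Irs2 by -0.20 (SE 0.17). Over all 11486 tested genes 5302 were higher and 6184 lower with aliskiren, with a median of -0.01. Among the 11486, 5810 were lower without losartan mouse 3. In that comparison the lower genes numbered 6 of 15 for prostaglandins, 9 of 14 for nitric oxide, 4 of 9 for salt sensing, 6 of 10 for renin cell signalling, 2 of 6 for the junction genes, 5 of 8 for RGS, 6 of 12 for retinoic acid and 9 of 14 for insulin-like growth factors.

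**Figure D5:**
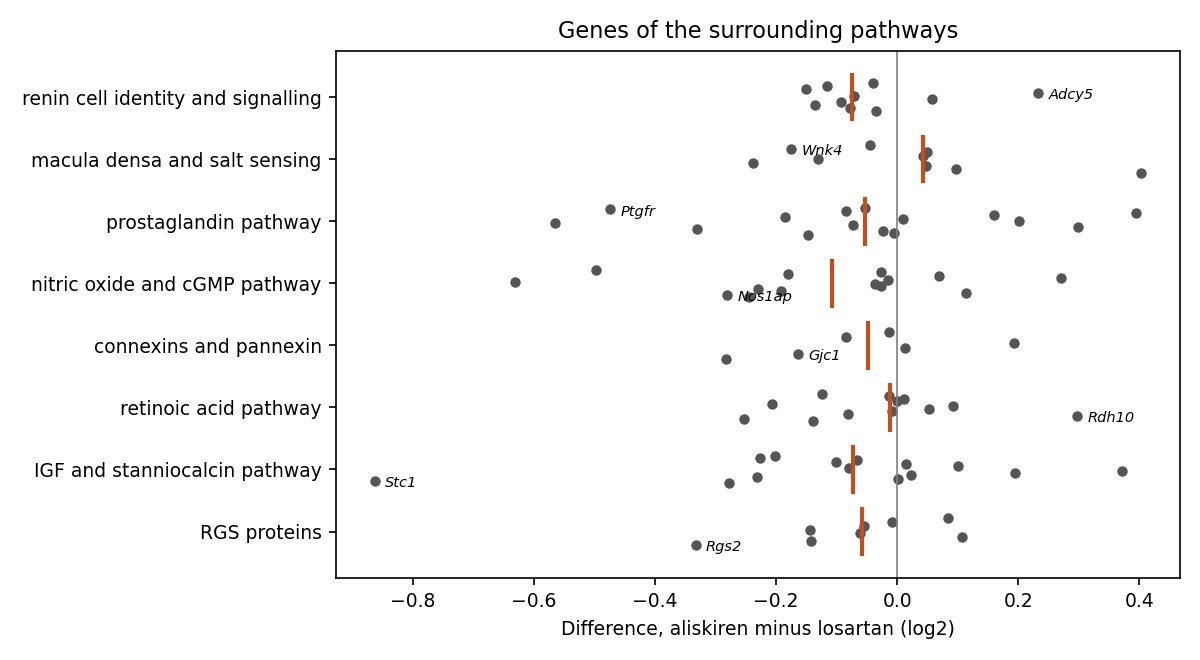
Difference of each tested gene of 8 pathway lists, aliskiren minus losartan on the log2 scale, 1 point per gene, with the list's median as an orange line and the gene of smallest p named. The medians lie between -0.11 and 0.04, and Stc1 at -0.86 lies farthest from 0.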

How the data were processed

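The authors deposited log2 values, which the submitters' processing notes ascribe to RMA and Affymetrix Expression Console 1.1. Biotin-labelled cRNA came from 100 ng of total RNA, per the labels' protocols. RMA brings the arrays to a common distribution, so an overall difference in RNA amount is lost. Of 45101 probe sets, 64 controls were left out, and 34945 of the rest had 1 gene symbol in the platform annotation, 932 several and 9160 none. The drugs were compared with limma 3.58.1 in R 4.3.3, with Benjamini-Hochberg adjustment over all 11486 tested genes. The fit was tested on simulated data with separate random noise for each gene and array. Those data held no shift shared by the genes of 1 mouse, such as that of losartan mouse 3. Correlations over 10 mice used values centred on the group mean and permutation tests with 100000 resamples. Where 1 mouse was left out, values were centred again on the mice kept. Where 2 mice were left out, the first centring stayed unless said otherwise. Figures were drawn with matplotlib 3.10.9. No 2 arrays were identical. Arrays have no depth, and 5 per group limit the precision. The mice are numbered as separate animals in the labels.

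The genes and lists were chosen with earlier results of these data known. All 8 genes are named, with the 3 genes of smallest p per pathway list, the 2 of highest mean signal for the marker lists described, and the 3 genes of highest r per member. Mouse numbers were taken as names only in the main fit. Alternatives changed the level filter, probe set, scaling, variance model, array weights or threshold, took mouse numbers as a block or left out each array. Leaving out losartan mouse 3 together with aliskiren mouse 1, the relations of further Nos1 and Rgs5 probe sets, centring again after leaving out mice, and the promoter motifs were added after the data were seen.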

Additional observations from a re-analysis of the deposited data

Results flagged for a closer look

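Within the aliskiren group Nos1 was below the other 4 mice in mouse 1, at 6.13 against 6.31 for the next. The gap was 0.878 of the group's range, past Dixon's critical value of 0.71 for 5 mice. That range was narrow, with the other 4 mice at 6.31 to 6.34, and mouse 1 lay inside the losartan range of 5.84 to 6.51. The further Nos1 probe sets differed in whether mouse 1 or mouse 4 was the lowest aliskiren mouse. In the losartan group, mouse 3 stood far above the others for the mesothelium and urothelium list, at 8.78 against 7.36 for the next, and for the perirenal fat list, at 12.92 against 9.27. Of 40 groups tested in this way 3 stood out, where chance gives about 1 in 20. Ptges, Rgs5 and Aldh1a2 were highest in losartan mouse 3 as well, but their gaps did not pass.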

How the results depend on the processing

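Under all 21 alternatives to the fit, 0 genes, 0 pathway genes and 0 of the members tested were called (6 members, but 8 with no level filter, 5 with the mean of all probe sets and 1 at the 75th percentile filter), the replicate block with the mouse number among them (0 genes after adjustment, 450 at an unadjusted p under 0.05, against 542 without the block). Deviations of same-numbered mice correlated between -0.229 and 0.42, and 2 of 5 aliskiren mice correlated best with their own number. So few mice cannot settle whether the numbers pair them. Ordinary t statistics gave 573 genes at an unadjusted p under 0.05. The lowest adjusted p of any member was 0.695, for Ptges. Of 167 alternative values of the members' differences, 22 turned in sign. With array weights Nos1 was at -0.016, Gja4 at 0.051 and Rgs5 at 0.04. Gja4 was at 0.001 with array medians set equal and at 0.016 with quantile normalization. Without losartan mouse 3 and aliskiren mouse 1 together, Nos1 was at -0.041, Gja4 at 0.084 and Rgs5 at 0.113. Further probe sets gave -0.126 and -0.031 for Nos1, 0.081 for Ptges and 0.011 for Rgs5. Leaving out 1 mouse gave a range from -0.079 to 0.088 for Nos1, -0.532 to -0.270 for Ptges, -0.133 to 0.071 for Gja4, -0.158 to 0.007 for Gja5, -0.332 to 0.191 for Rgs5 and -0.565 to 0.191 for Aldh1a2. The 3 correlated member pairs became 0 with Spearman's rho and 1 with the mean of all probe sets, and between 0 and 4 without 1 mouse, with 0 without losartan mouse 3 or aliskiren mouse 3 and 1 without losartan mouse 4 or aliskiren mouse 1. Of 167 alternative list medians, 1 moved by more than the spread between mice, that of salt sensing genes, to -0.072 without aliskiren mouse 4. The cause was not tested in these cases. At the 75th percentile filter only Rgs5 could be tested.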
